A study of Mus musculus with 12 samples.

Results

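A set of 10 genes of the ATF4 arm of the integrated stress response and of the unfolded protein response was followed in tumor-associated macrophages (TAMs): Atf4, Ddit3, Atf3, Xbp1, Trib3, Asns, Chac1, Sesn2, Ddit4 and Hspa5. They were chosen by name, with earlier results of these data known, and are 10 of the 55401 genes listed in each of 2 count tables. The TAMs came from subcutaneous B16 melanoma tumors, a mouse tumor line grafted into C57BL/6 mice, and were sorted on macrophage surface markers before bulk RNA-seq. The first table held 3 libraries labelled AMPK fl/fl (WT) and 3 libraries labelled AMPK fl/fl Lyz2cre/cre (AMPK-KO). By the methods, both were sampled at the same late time point. In the AMPK-KO mice Cre recombinase is driven from the Lyz2 locus, which is active in macrophages and other myeloid cells, so both groups carry the floxed AMPK allele and only one is labelled as carrying Cre. The second table held 3 samples from early-stage tumors (day 8) and 3 from late-stage tumors (day 15), all of WT genotype. The labels give no treatment for any sample. For 2 of the 3 AMPK-KO libraries the labelled genotype has another number after Lyz, and all 3 are taken here as Lyz2cre. Nothing in the labels says whether the replicates came from separate mice, so the p-values measure the spread between these samples, which may be technical.

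When uncharged tRNA, misfolded protein in the endoplasmic reticulum (ER) or other stresses accumulate, kinases such as GCN2 and PERK phosphorylate the translation factor eIF2. Bulk translation then falls while the mRNA of ATF4, a transcription factor, is translated more, so that Atf4 mRNA is only a partial guide to ATF4 activity. ATF4 induces genes of amino acid supply, such as Asns, together with further regulators such as Ddit3 (CHOP), Atf3 and Trib3. In parallel, IRE1 splices Xbp1 mRNA and ATF6 is released from the ER membrane, and both factors induce ER chaperones, of which Hspa5 (BiP) is the best known. AMPK is a kinase that senses low cellular energy. In macrophages these pathways bear on secretion and on survival under stress.

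The libraries held between 71019494 and 84470374 counts. Prkaa1, the gene of the catalytic alpha 1 subunit of AMPK, averaged 65.0 ± 3.34 CPM (counts scaled to library size; SD, n = 3) in WT and 42.9 ± 3.53 in AMPK-KO, a log2 fold change of -0.60 (adjusted p = 2.26e-04). Lyz2 was low in both groups of the first table, with 10.7 ± 2.46 CPM in WT and 11.2 ± 2.16 in AMPK-KO, against 2790 ± 279 CPM in the early-stage and 1107 ± 19.1 CPM in the late-stage samples of the second table. Lyz2cre is an insertion at the Lyz2 locus, and the WT libraries, whose label names no Cre, were as low in Lyz2 as AMPK-KO. The groups are called here by their labels. The defining macrophage markers (Adgre1, Csf1r, Cd68, C1qa and others) were present in all 12 libraries, with a summed level of 11389 to 15696 CPM over 11 genes. Markers of B16 melanoma, fibroblasts, dendritic cells and lymphocytes were also detected and differed between the groups, and their values stand beside the results below. Uty, Kdm5d, Eif2s3y and Ddx3y, which lie on the Y chromosome, summed to between 41.5 and 48.8 CPM in the early-stage samples and to at most 4 counts in a late-stage sample, so that sex and stage cannot be told apart. In WT and AMPK-KO the same sum lay between 128 and 153 CPM. The methods name female mice, and the Y-linked transcripts of the WT, AMPK-KO and early-stage libraries go against this.

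The promoters of Hspa5, Asns, Trib3, Atf3 and Sesn2 are shown because these are the 5 genes that differed between AMPK-KO and WT. Each sequence (RefSeq, GRCm38.p6) runs 5′ to 3′ on the strand of the gene from 200 bases before the annotated start to base 25 after it. Capitals mark a match on either strand to the ER stress response element (ERSE, CCAAT and CCACG at a fixed spacing) or to the C/EBP-ATF response element (CARE, TGATGNAA), the motifs bound by ATF6 and XBP1 with NF-Y and by ATF4 with C/EBP partners. The windows lie at chr2:34771890-34772114 (Hspa5, plus strand), chr6:7693185-7693409 (Asns, minus), chr2:152344036-152344260 (Trib3, minus), chr1:191183309-191183533 (Atf3, minus) and chr4:132510432-132510656 (Sesn2, minus). These starts do not coincide with the ends of the gene models whose positions are given below. Those used for Hspa5, Asns, Sesn2 and Atf3 lie inside the gene model, with Atf3 far inside it. The start used for Trib3 lies upstream of its gene model.
Hspa5: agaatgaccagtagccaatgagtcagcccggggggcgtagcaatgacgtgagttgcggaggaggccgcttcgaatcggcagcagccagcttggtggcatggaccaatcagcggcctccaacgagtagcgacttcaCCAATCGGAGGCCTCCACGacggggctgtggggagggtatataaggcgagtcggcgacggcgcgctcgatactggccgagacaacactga
Asns: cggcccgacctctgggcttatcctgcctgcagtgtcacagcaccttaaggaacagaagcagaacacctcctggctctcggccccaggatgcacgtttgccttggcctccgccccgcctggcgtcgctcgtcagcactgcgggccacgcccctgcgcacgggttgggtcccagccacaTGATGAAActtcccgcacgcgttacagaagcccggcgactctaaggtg
Trib3: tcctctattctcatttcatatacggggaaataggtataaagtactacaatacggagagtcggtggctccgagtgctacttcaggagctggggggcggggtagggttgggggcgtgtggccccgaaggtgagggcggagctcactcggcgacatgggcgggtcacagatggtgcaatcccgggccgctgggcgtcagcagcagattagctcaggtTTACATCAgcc
Atf3: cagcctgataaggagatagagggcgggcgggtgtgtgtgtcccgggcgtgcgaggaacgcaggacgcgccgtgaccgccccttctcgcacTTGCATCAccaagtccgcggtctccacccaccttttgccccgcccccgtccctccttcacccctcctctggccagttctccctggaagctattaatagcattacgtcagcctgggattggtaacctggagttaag
Sesn2: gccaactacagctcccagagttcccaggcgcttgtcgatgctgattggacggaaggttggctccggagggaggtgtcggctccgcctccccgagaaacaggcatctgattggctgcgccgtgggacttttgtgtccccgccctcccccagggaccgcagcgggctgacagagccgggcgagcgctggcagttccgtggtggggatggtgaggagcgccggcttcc

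Over 300 bases of each of the 10 promoters (250 before the start and 50 from it), Hspa5 held the ERSE at bases -65 to -47, a motif present in 0.119% of 32851 promoters searched. Asns held the CARE at -23 to -16, Atf3 at -110 to -103, Trib3 at 15 to 22 and Chac1 at -193 to -186, the last 3 on the opposite strand, and the CARE was in 3.97% of the promoters searched. The promoters of Atf4, Ddit3, Sesn2, Ddit4 and Xbp1 had no match to either motif in these windows, and none of the 10 matched the ERSE-II (ATTGG and CCACG with 1 base between them, 0.0365% of promoters), the UPRE (TGACGTGG, 0.676%) or the CRE (TGACGTCA, 1.79%). A match is a run of letters and not a measured binding site.

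The 10 genes covered a wide range of levels. Scaled to transcript length and library size (TPM), Hspa5 was the highest in each of the 4 groups, with 1025 ± 29.8 TPM in WT and 1175 ± 14.1 TPM in the late-stage samples. Atf3 followed with 767 ± 4.58 TPM in WT, then Atf4 with 213 ± 3.70, Xbp1 with 140 ± 6.78 and Ddit4 with 132 ± 8.87 TPM, the last pair with overlapping ranges. Below them lay Ddit3 (46.0 ± 1.58 TPM), Sesn2 (21.2 ± 1.71), Asns (11.4 ± 0.967) and Trib3 (10.6 ± 1.17), of which the ranges of Asns and Trib3 overlapped, and Chac1 was the lowest at 1.12 ± 0.266 TPM. The first 7 places were the same in all 4 groups. Only Asns and Trib3 exchanged places: Asns stood above Trib3 in WT and below it in AMPK-KO (5.68 ± 0.435 against 7.54 ± 0.353 TPM), early-stage and late-stage samples, with ranges that did not overlap in AMPK-KO and early-stage samples.

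**Figure D1:**
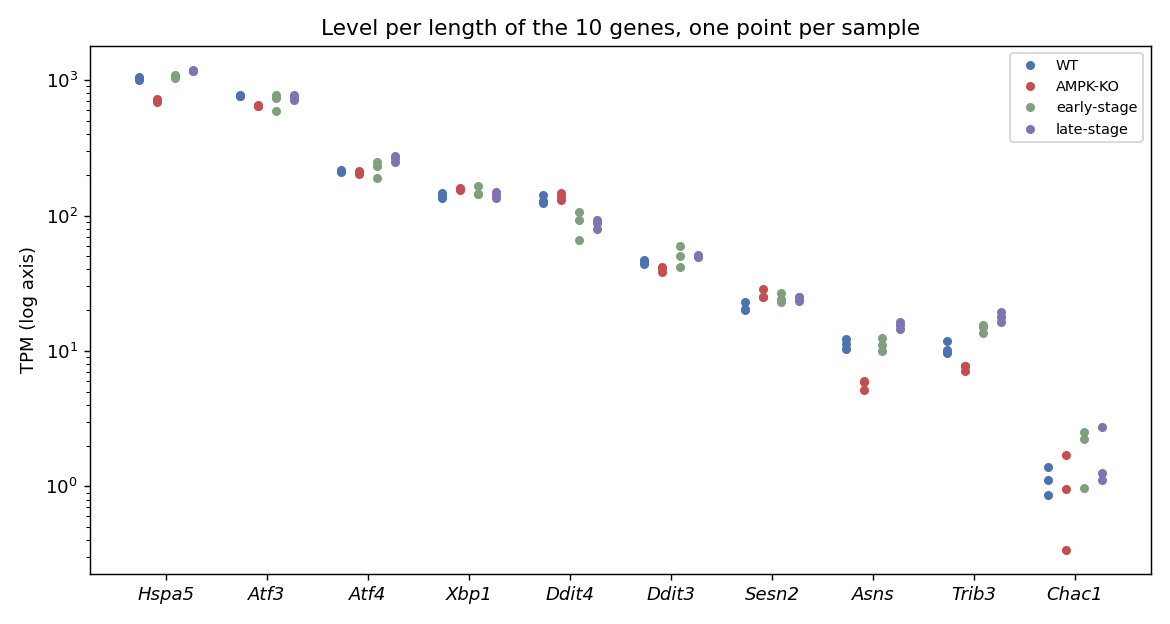
Level of the 10 genes in TPM on a log axis, one point per sample and one color per group. Hspa5 lies at the top (1025 TPM on average in WT) and Chac1 at the bottom (1.12 TPM), and the order of the genes is nearly the same in the 4 groups.

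To ask whether these genes differed between the groups as labelled, AMPK-KO was compared with WT. All 10 genes passed the filter on low counts, and 5 of them had an adjusted p under 0.05, where 21.1% of all 17532 genes tested did. Hspa5, Asns, Trib3 and Atf3 fell, which is 4 of 10 against 9.78% of all genes called lower, and Sesn2 rose, which is 1 of 10 against 11.3% called higher. The values of AMPK-KO and WT did not overlap for 8 of the 10 genes, where 37.2% of all genes did not overlap. The median log2 fold change of the 10 was -0.23 and that of all genes tested -0.0037. Asns was the only one with an absolute log2 fold change above 1, a size that 3.34% of all genes reached with an adjusted p under 0.05.

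Hspa5 (chr2:34771970-34777547, 7 exons) encodes BiP, the HSP70 chaperone of the ER lumen that also holds the stress sensors inactive. It had 107591, 111423 and 123186 counts in WT replicates 1 to 3, and 73723, 81838 and 81696 in AMPK-KO replicates 1 to 3. After scaling these were 1494, 1543 and 1511 CPM in WT and 999, 1020.0 and 1011 CPM in AMPK-KO. Every AMPK-KO sample lay below every WT sample, and the coefficient of variation was 1.66% in WT and 1.04% in AMPK-KO. The level fell by 33.4% (log2 fold change -0.59, SE 0.0364, 95% interval -0.67 to -0.50, adjusted p = 2.30e-06). Among the 12 alternative settings the log2 fold change stayed between -0.60 and -0.57.

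Asns (chr6:7675169-7693254, minus strand, 13 exons), with the CARE close to its start, encodes asparagine synthetase, which makes asparagine from aspartate and glutamine and is a standard readout of ATF4. It had 9.51, 11.3 and 11.9 CPM in WT replicates 1 to 3 and 4.73, 5.48 and 5.55 CPM in AMPK-KO replicates 1 to 3, from 685, 816 and 971 counts and from 349, 440 and 448 counts. The highest AMPK-KO sample stood at less than 6 CPM, well below the lowest WT sample. The level fell by 51.8% (log2 fold change -1.05, SE 0.129, 95% interval -1.34 to -0.77, adjusted p = 2.40e-04), the largest decrease of the 10 genes.

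Trib3 (chr2:152337422-152344032, minus strand) encodes a pseudokinase that ATF4 and CHOP induce and that in turn restrains them. Its levels were 8.43, 7.46 and 7.62 CPM in WT and 5.50, 5.50 and 5.24 CPM in AMPK-KO, from 539 to 621 counts and from 406 to 441 counts. The groups did not overlap and the AMPK-KO samples were close to each other. Trib3 fell by 30.9% (log2 fold change -0.53, SE 0.116, adjusted p = 0.00842).

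Atf3 (chr1:191170296-191218039, minus strand) encodes a transcription factor of the ATF/CREB family that is induced by ATF4 and also, as an immediate early gene, by other stresses. It was measured at 552, 604 and 578 CPM in WT and at 462, 470.2 and 476 CPM in AMPK-KO. No AMPK-KO sample reached the lowest WT sample. It fell by 18.8% (log2 fold change -0.30, SE 0.0458, adjusted p = 0.00100). Asns, Trib3, Atf3 and Hspa5 kept an adjusted p under 0.05 in all 12 alternative settings.

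Sesn2 (chr4:132492032-132510501, minus strand) encodes sestrin 2, a leucine-binding protein that restrains mTORC1 and is induced by ATF4 and by p53. Its values were 26.8, 25.3 and 25.1 CPM in WT and 33.2, 29.3 and 29.9 CPM in AMPK-KO, so that all 3 AMPK-KO samples lay above the WT samples and AMPK-KO replicate 1 stood highest. Sesn2 was 19.7% higher (log2 fold change 0.26, SE 0.0768, adjusted p = 0.0367), the direction opposite to that of the other 4 genes called. This call was not firm, since 6 of 12 alternative settings took it past 0.05. The adjusted p was 0.156 without AMPK-KO replicate 1, 0.0658 without AMPK-KO replicate 2, 0.0585 without AMPK-KO replicate 3, 0.0892 without WT replicate 2, 0.137 without WT replicate 3 and 0.0672 with no filter on low counts, while the log2 fold change stayed between 0.20 and 0.29.

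Atf4 itself (chr15:80255184-80257541) had 170.3, 183 and 174 CPM in WT and 168, 161 and 168 CPM in AMPK-KO. The groups did not overlap, but the difference was small and did not pass the test (log2 fold change -0.085, 95% interval -0.20 to 0.025, adjusted p = 0.270). Counts of mRNA do not measure the translation of Atf4.

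Ddit3 (chr10:127290774-127296288) encodes CHOP, a transcription factor of the C/EBP family tied to cell death under lasting ER stress. It had 25.3, 29.4 and 28.1 CPM in WT and 21.8, 23.4 and 24.7 CPM in AMPK-KO. The groups did not overlap, with a log2 fold change of -0.24 (SE 0.0864) that did not pass the test (adjusted p = 0.0726). Without WT replicate 1 it was -0.31 with an adjusted p of 0.0299. Ddit3 shares 68 exonic bases with Mars on the opposite strand and 105 with another gene model of the same symbol, and the sources used here do not state whether counting used strand.

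Xbp1 encodes the transcription factor whose mRNA IRE1 splices, and its gene count sums the spliced and unspliced forms. The levels were 160.0, 158.9 and 158.8 CPM in WT and 172.0, 170.7 and 174 CPM in AMPK-KO. The replicates were tight and the groups did not overlap, with a log2 fold change of 0.11 (SE 0.0441) and an adjusted p of 0.0980. Its direction was opposite to that of Hspa5.

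Ddit4 (chr10:59949669-59951834, minus strand) encodes REDD1, an inhibitor of mTORC1 induced by hypoxia, glucocorticoids and ATF4. Values ranged from 72.7 to 90.3 CPM in WT and from 76.5 to 88.6 CPM in AMPK-KO, so the groups overlapped (log2 fold change 0.028, 95% interval -0.16 to 0.21, adjusted p = 0.859). Chac1 (chr2:119351229-119354381) encodes an enzyme that degrades glutathione and is a sensitive ATF4 target. It rested on 34 to 60 counts in WT and 15 to 69 counts in AMPK-KO, and the ranges overlapped (log2 fold change -0.22, 95% interval -1.46 to 1.01, adjusted p = 0.830). The coefficient of variation of Chac1 was 27.8% in WT and 67.4% in AMPK-KO.

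**Figure D2:**
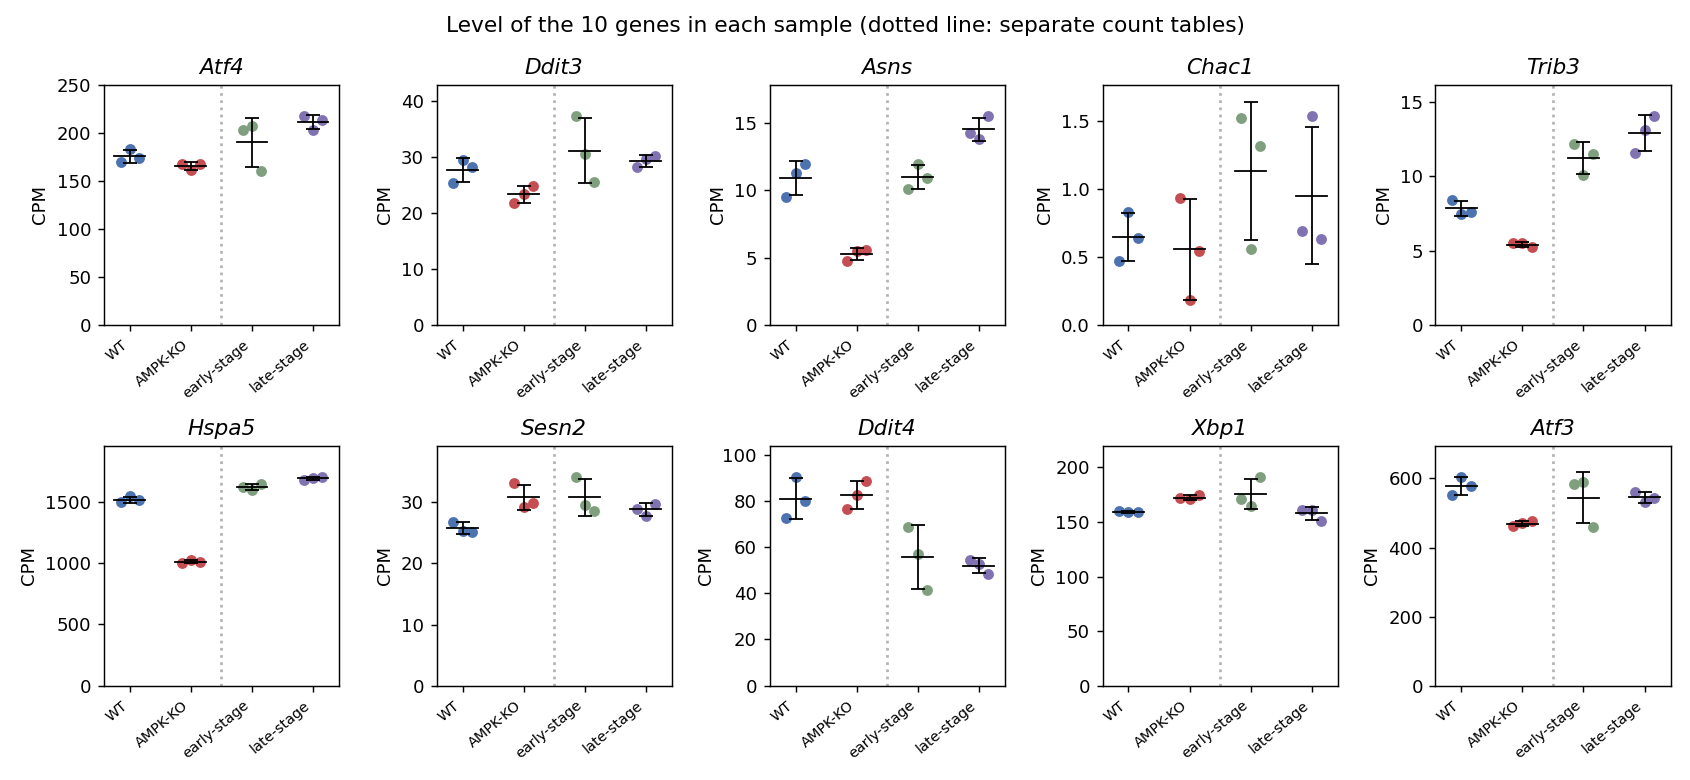
CPM of each of the 10 genes in every sample, with the mean and SD (n = 3) of each group, each panel starting at 0; the dotted line separates the count tables, which were scaled separately. Hspa5, Asns, Trib3 and Atf3 are lower in the 3 AMPK-KO samples than in the 3 WT samples, and the early-stage and late-stage samples mostly overlap.

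The genes around these 10 were read from 13 lists of the same and of other pathways. The other pathways were mTORC1 regulators and immediate early, glucocorticoid and hypoxia response genes, and counts over the 13 lists include them. For every list count in AMPK-KO against WT, the shares over all genes tested were 11.3% higher and 9.78% lower. Of 26 other ER chaperones and folding enzymes 17 fell, where 9.78% of all genes tested did, and none rose with edgeR (1 higher at an unadjusted p under 0.05 and 0 with DESeq2), with a median log2 fold change of -0.29. Creld2, a disulfide isomerase-like ER protein, fell and measured 99.8 ± 7.86 CPM in WT and 58.7 ± 1.99 in AMPK-KO (log2 fold change -0.77, adjusted p = 2.28e-05). Pdia4, a protein disulfide isomerase, fell and measured 364 ± 5.82 CPM in WT and 225 ± 8.13 in AMPK-KO (log2 fold change -0.70, adjusted p = 3.31e-06). Between WT and AMPK-KO, 20 of the 26 genes did not overlap, where 37.2% of all genes did not. The median of the 26 log2 ratios to the WT mean was -0.30 in AMPK-KO replicate 1, -0.26 in replicate 2 and -0.31 in replicate 3, so the 3 samples moved alike. Ero1lb (log2 fold change 0.23), Uggt1 (0.085) and Ero1l (0.020) had a positive sign and were not called.

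**Figure D3:**
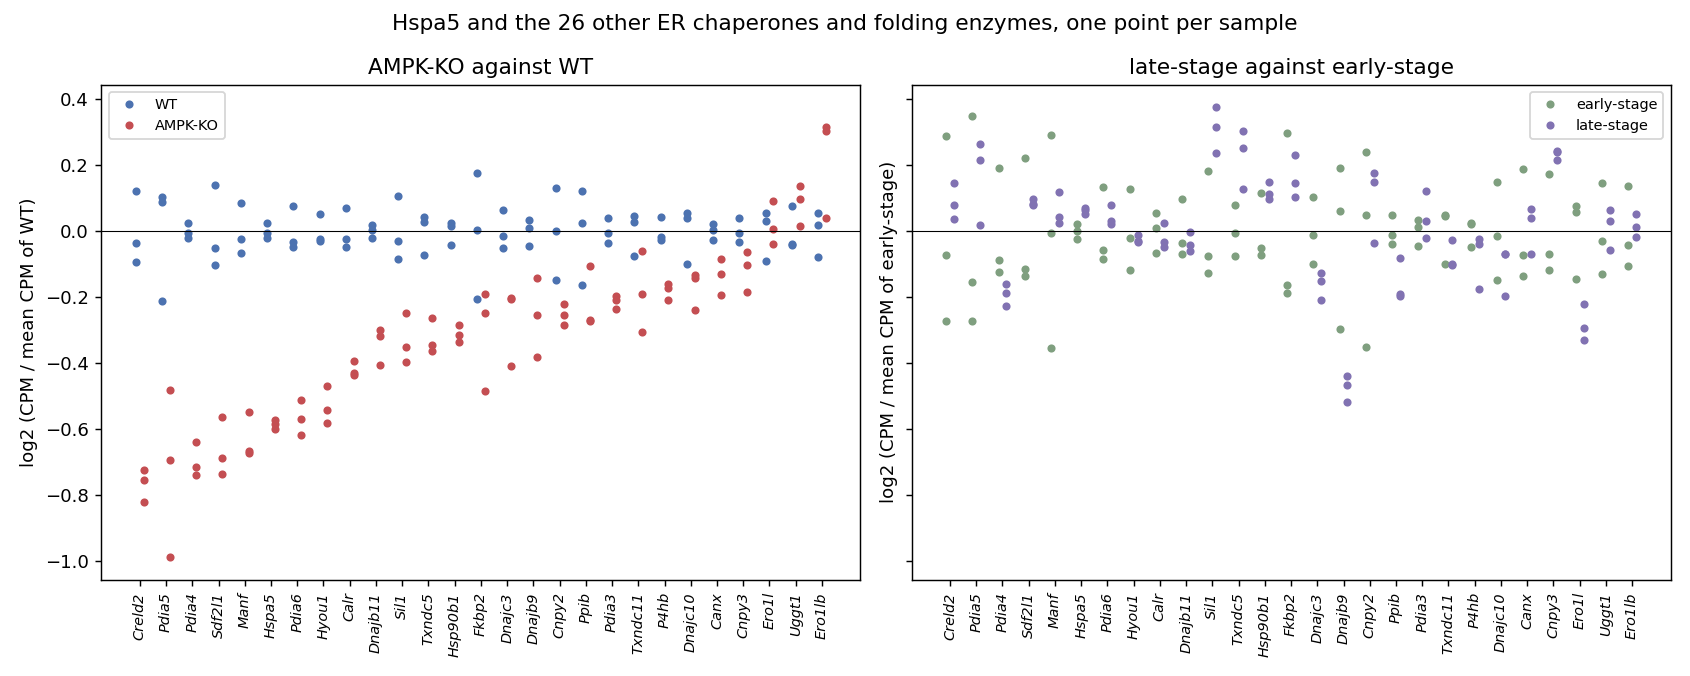
Each point is the log2 ratio of a sample's CPM to the mean CPM of WT (left) or of early-stage samples (right), for Hspa5 and 26 ER chaperones and folding enzymes ordered by their log2 fold change in AMPK-KO. In the left panel the AMPK-KO points lie below the WT points for most genes, and in the right panel the points of both stages overlap for most genes.

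Of 23 promoters of the chaperone list that were found, 7 held the ERSE (Hsp90b1, Calr, Canx, Dnajc3, Creld2, Pdia6 and Ero1lb). Of these 7 genes 5 fell in AMPK-KO, where 17 of the 26 genes of the whole list did, and Canx (log2 fold change -0.14) and Ero1lb were not called. Syvn1 and Derl3, which held the ERSE in the list of ER-associated degradation genes, were not called. Dnajb11, with an ERSE-II, fell and Herpud1, with the same motif, rose. A link between these motifs and the changes was not tested. In the list of ER translocation and secretory genes that XBP1 controls, 13 of 23 fell and none rose with edgeR, with DESeq2 or at an unadjusted p, among them Sec24d, a COPII coat subunit (log2 fold change -0.57, adjusted p = 1.58e-04), and Lman1, a cargo receptor (-0.32, adjusted p = 0.00271). That count was 7 without WT replicate 3. ER-associated degradation, which removes misfolded protein, had 1 gene higher and 1 lower of 20, where 11.3% and 9.78% of all genes were. Herpud1, which recruits the degradation complex and is also counted among the ATF4 targets, rose (log2 fold change 0.33, adjusted p = 0.00175). Rnf5, a ubiquitin ligase, fell (-0.25, adjusted p = 0.0388), a call lost without AMPK-KO replicate 1 (adjusted p = 0.142), 2 (0.0542) or 3 (0.0999) and without WT replicate 2 (0.120) or 3 (0.135).

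Of 12 sensors and transducers of the unfolded protein response 3 rose, where 11.3% of all genes did, and none fell with edgeR (2 at an unadjusted p under 0.05, 1 with DESeq2). Ern1, which encodes IRE1, rose by a log2 fold change of 0.42 (48.5 ± 3.32 CPM in WT and 65.0 ± 3.66 in AMPK-KO, adjusted p = 0.00173), and so did Atf6 (112 ± 4.19 and 137 ± 9.52 CPM, 0.29, adjusted p = 0.00722). Eif2ak3, which encodes PERK, had a log2 fold change of 0.060 and was not called. In the list of eIF2 kinases, phosphatase subunits and exchange factor, 1 of 18 rose and 6 fell, where 11.3% and 9.78% of all genes did. The regulatory subunits of the eIF2 phosphatase moved in opposite directions: Ppp1r15a (GADD34), itself an ATF4 target, fell (-0.40, adjusted p = 2.95e-04) and the constitutive Ppp1r15b rose (0.26, adjusted p = 0.0145). The call of Ppp1r15b was lost without AMPK-KO replicate 1 (adjusted p = 0.0644) or 2 (0.0653). Eif2s2, the beta subunit of eIF2, fell (-0.32, adjusted p = 0.00202). The count of 6 lower genes was 3 without AMPK-KO replicate 1, AMPK-KO replicate 2, WT replicate 2 or WT replicate 3.

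ATF4 target genes of transcription and signaling were mixed, with 4 of 17 higher and 5 lower, where 11.3% and 9.78% of all genes were. Gdf15, a secreted stress hormone, had the largest decrease, with 108 ± 8.15 CPM in WT and 19.8 ± 2.62 in AMPK-KO (log2 fold change -2.45, adjusted p = 2.21e-07), and Sqstm1, the autophagy receptor p62, fell from 784 ± 20.7 to 481 ± 12.7 CPM (-0.71, adjusted p = 1.99e-06). Ndrg1, a gene also induced by hypoxia, rose (0.23, adjusted p = 0.00494). The count of higher genes was 2 without AMPK-KO replicate 2. Among the enzymes of amino acid synthesis and one-carbon metabolism, beside Asns, 6 of 16 fell and none rose with edgeR (1 at an unadjusted p under 0.05, 0 with DESeq2), including Gpt2, an alanine aminotransferase (-0.47, adjusted p = 3.63e-04), and Glul, glutamine synthetase (-0.38, adjusted p = 5.96e-04).

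Of 12 amino acid transporters 2 were higher and 2 lower, where 11.3% and 9.78% of all genes were. Slc7a11, the cystine transporter xCT, rose by a log2 fold change of 0.52 (17.8 ± 2.12 CPM in WT and 25.5 ± 2.08 in AMPK-KO, adjusted p = 0.00555), while its partner Slc3a2 fell (-0.16, adjusted p = 0.0256) and so did Slc7a5, another partner of Slc3a2 (-0.26, adjusted p = 0.0200). Slc36a1, a lysosomal transporter, rose (0.28, adjusted p = 0.0214). The Slc7a11 call held in all 12 alternatives. Slc3a2 was not called without AMPK-KO replicate 1 (adjusted p = 0.101), AMPK-KO replicate 2 (0.115), WT replicate 2 (0.0758) or WT replicate 3 (0.0761). Slc7a5 was not called without AMPK-KO replicate 1 (0.0885), AMPK-KO replicate 3 (0.0638) or WT replicate 1 (0.0501). Slc36a1 was not called without AMPK-KO replicate 1 or 3 or WT replicate 2 or 3 (adjusted p from 0.0621 to 0.0879) nor with no filter on low counts (0.0558). Of 20 cytosolic aminoacyl-tRNA synthetases 1 rose and 5 fell, with Lars (0.28, adjusted p = 0.00389), Sars (-0.26, adjusted p = 0.00485) and Aars (-0.24, adjusted p = 0.00671) as examples, and 3 fell without AMPK-KO replicate 2 or WT replicate 3. The CARE was in 5 synthetases, of which 1 fell (Aars), and in 2 transporters, of which 1 rose (Slc7a11). Of 4 tested ATF4 targets with a CARE 1 rose (Herpud1), and 3 amino acid enzymes and Eif2s3x were not called. The 2 chaperones with a CARE, Cnpy2 and Txndc5, fell. A link between the CARE and these changes was not tested.

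Beside Sesn2 and Ddit4, 1 of 12 sestrins and negative regulators of mTORC1 was called, where 21.1% of all genes were. Akt1s1 (PRAS40) fell (-0.29, adjusted p = 0.0136), a call lost without AMPK-KO replicate 2 (0.0724) or WT replicate 3 (0.0566). The other sestrins were not called (Sesn1 -0.12, Sesn3 0.075). Beside Atf3, the immediate early genes, which also respond to tissue dissociation, were split between 4 higher and 6 lower of 20, with Btg2 (0.74, adjusted p = 3.31e-06) and Egr2 (0.39, adjusted p = 0.00257) higher and Jun (-0.37, adjusted p = 9.06e-05) and Hspa1a (-0.31, adjusted p = 1.58e-04) lower. Of 8 glucocorticoid response genes, which share regulation with Ddit4, 3 rose, including Tsc22d3 (0.25, adjusted p = 0.00416) and Per1 (0.34, adjusted p = 0.00638), and 3 fell, including Sgk1 (-0.41, adjusted p = 2.94e-04) and Nfkbia (-0.32, adjusted p = 0.00212). Of 12 hypoxia genes, Adm fell (-1.13, adjusted p = 1.43e-05) and Ndrg1 and Vegfa (0.20, adjusted p = 0.00857) rose, Vegfa with an adjusted p of 0.0512 without AMPK-KO replicate 2.

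Markers of other cells differed between the same groups, where 21.1% of all genes tested were called. The 8 melanoma markers summed to between 1037 and 1039.9 CPM in WT and between 703 and 744 CPM in AMPK-KO, with 7 of 8 lower (median log2 fold change -0.49). The 7 NK cell markers were all higher (49.8 to 59.5 against 135 to 141 CPM), as were the 8 conventional dendritic cell and the 6 fibroblast markers, 7 of 8 T cell markers and 4 of 6 neutrophil markers tested, while Ly6g and Ngp were at 0 in all 6 libraries. Plasma cells carry a large ER, and of their 11 markers tested 4 were higher and 4 lower. The lower ones were Igha (log2 fold change -4.79, 8.15 CPM in WT and 0.292 CPM in AMPK-KO), Pou2af1 (-3.77), Fkbp11 (-1.22) and Igkc (-1.13). The higher ones were Irf4 (0.62), Prdm1 (0.59), Ighm (0.56) and Sdc1 (0.32). Of the 7 B cell markers 6 were lower and 1 higher (35.6 to 38.1 against 20.2 to 22.5 CPM), and the macrophage markers had 3 higher and 2 lower of 11. The higher macrophage markers were Ptprc (log2 fold change 0.68), Itgam (0.55) and Csf1r (0.14), and the lower ones Cd68 (-0.55) and Mrc1 (-0.51). In these bulk samples fewer cells of a type and less RNA per cell cannot be told apart, and the part of these markers in the values of Hspa5, Asns and the other genes was not tested.

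**Figure D4:**
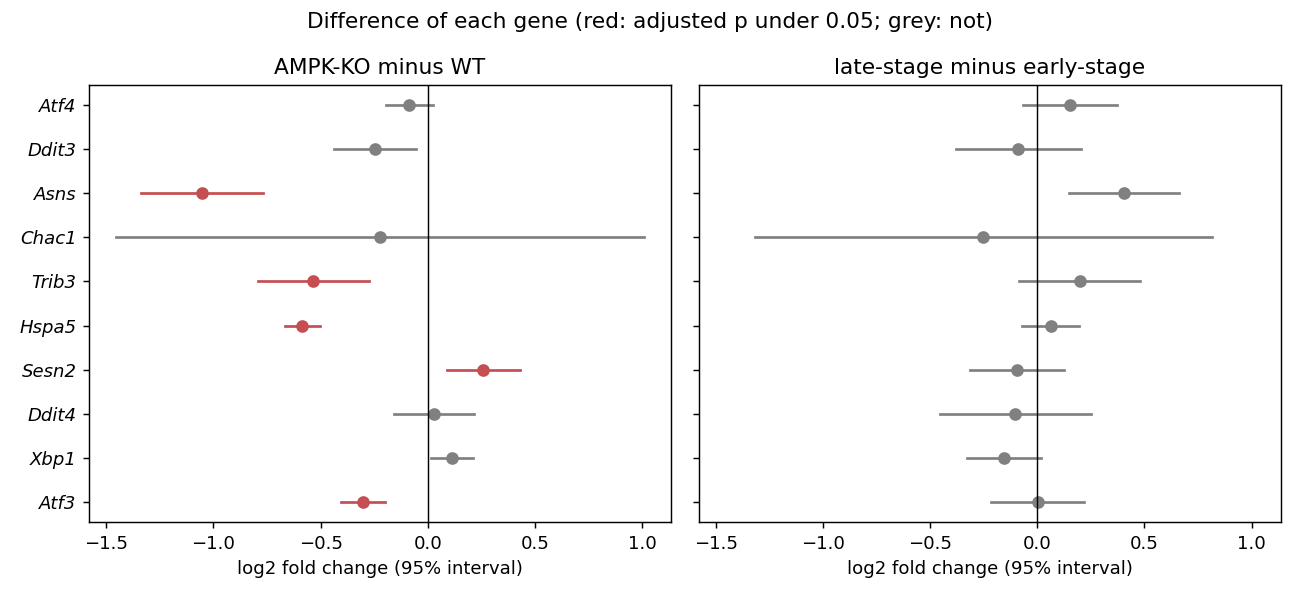
Log2 fold change of each of the 10 genes with its 95% interval, for AMPK-KO minus WT (left) and late-stage minus early-stage (right), red where the adjusted p was under 0.05. In the left panel Hspa5, Asns, Trib3 and Atf3 lie below 0 and Sesn2 above it, and in the right panel no gene is red.

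Late-stage TAMs were compared with early-stage TAMs to follow the same genes through tumor growth. All 10 were tested and 0 of 10 were called, where 9.18% of 17630 genes were (4.31% higher and 4.88% lower in late-stage). With edgeR 1 of the 10 had an unadjusted p under 0.05, and with DESeq2 1 was called, Asns in both cases. The groups did not overlap for 3 of 10 genes (Asns, Hspa5 and Xbp1), where 31.2% of all genes did not. The median log2 fold change of the 10 was -0.043 and that of all genes tested 0.0027.

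Asns had 10.1, 11.9 and 10.9 CPM in early-stage replicates 1 to 3 and 14.3, 13.8 and 15.5 CPM in late-stage replicates 1 to 3. Every late-stage sample was higher, by a log2 fold change of 0.40 (SE 0.114, 95% interval 0.15 to 0.66), with an adjusted p of 0.0569 by edgeR and 0.0262 by DESeq2. Hspa5 had 1621, 1593 and 1644 CPM in the early-stage and 1678, 1692 and 1700.0 CPM in the late-stage samples. The groups did not overlap, but the log2 fold change was only 0.062 (95% interval -0.070 to 0.19, adjusted p = 0.576). Xbp1 had 171, 165 and 191 CPM and 161.0, 160.9 and 151 CPM, lower in every late-stage sample, with a log2 fold change of -0.16 (95% interval -0.33 to 0.017, adjusted p = 0.252).

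The remaining 7 genes overlapped between the stages. Atf4 had 203, 207 and 161 CPM in the early-stage and 218, 203 and 214 CPM in the late-stage samples (log2 fold change 0.15, adjusted p = 0.378). Atf3 had 584, 589 and 459.5 CPM against 561, 532 and 543 CPM (log2 fold change 0.0025, 95% interval -0.21 to 0.22). Early-stage replicate 3 was the lowest of the 6 samples for both genes and for Ddit3 and Ddit4. Ddit3 had 37.2, 30.5 and 25.6 CPM against 28.1, 29.6 and 30.1 CPM (log2 fold change -0.088, adjusted p = 0.734), and Ddit4 had 68.7, 57.0 and 41.3 CPM against 54.5, 52.8 and 48.3 CPM (-0.10, adjusted p = 0.743). Early-stage replicate 1 was the highest of the 6 samples for Ddit3, Ddit4 and Sesn2. Sesn2 ranged from 28.6 to 34.1 CPM against 27.8 to 29.8 CPM (-0.095, adjusted p = 0.611), and Trib3 from 10.1 to 12.2 CPM against 11.6 to 14.0 CPM (0.20, adjusted p = 0.379). Chac1 rested on 43 to 126 counts in the early-stage and 52 to 123 counts in the late-stage samples (-0.25, 95% interval -1.32 to 0.82, adjusted p = 0.796). The coefficient of variation of the early-stage samples was 24.8% for Ddit4, 18.8% for Ddit3, 13.5% for Atf3 and 13.4% for Atf4, against 6.11%, 3.55%, 2.72% and 3.55% in the late-stage samples. The early-stage replicates thus spread more for these genes.

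Over the 13 lists 20 of 207 distinct genes tested (9.66%) were called between the stages, where 9.18% of all genes were. Between AMPK-KO and WT 82 of 208 (39.4%) were called, where 21.1% of all genes were, and whether the comparisons differ in this was not tested. Of 16 amino acid and one-carbon enzymes 4 rose and 1 fell in late-stage: Pck2, the mitochondrial phosphoenolpyruvate carboxykinase, rose (26.9 ± 3.02 CPM in early-stage and 49.2 ± 1.58 in late-stage samples, log2 fold change 0.87, adjusted p = 6.39e-04) and Shmt2, the mitochondrial serine hydroxymethyltransferase, rose (0.55, adjusted p = 0.00892), while Gpt2 fell (-0.60, adjusted p = 0.00915). Of 11 transporters 2 rose, Slc7a5 (0.42, adjusted p = 0.0228) and Slc1a5, a glutamine transporter (0.55, adjusted p = 0.0391), and Slc7a11 fell from 22.6 ± 3.64 to 8.56 ± 1.05 CPM (-1.40, adjusted p = 4.63e-04). Vars, the valyl-tRNA synthetase, was the 1 of 20 synthetases called (0.63, adjusted p = 5.25e-04).

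Few ER genes were called between the stages, where 9.18% of all genes tested were. Of 26 chaperones and folding enzymes 1 was called, Dnajb9 (ERdj4), which fell (-0.47, adjusted p = 0.0362), and the median of the list was 0.015. Between the stages 8 of the 26 genes did not overlap, where 31.2% of all genes did not. No gene of the ER-associated degradation list, the ER translocation list or the mTORC1 regulator list was called with edgeR, where an unadjusted p under 0.05 held for 3, 1 and 1 of them and DESeq2 called 1, 1 and 0. Rtcb, the ligase that joins spliced Xbp1 mRNA, rose (0.29, adjusted p = 0.0231), Gcn1, an activator of GCN2, rose (0.30, adjusted p = 0.0295), Nck1 fell (-0.57, adjusted p = 0.0370) and Sqstm1 fell (-0.33, adjusted p = 0.0474). Fosb (0.68, adjusted p = 0.0306) and the heat shock gene Hspa1b (0.77, adjusted p = 0.0392) rose, Fkbp5 rose (0.45, adjusted p = 0.00496), and Tsc22d3 (-0.57, adjusted p = 0.0145), Bnip3 (-0.36, adjusted p = 0.0127) and Egln3 (-0.51, adjusted p = 0.0140) fell. Of the stage calls named, Pck2, Slc7a11, Vars and Fkbp5 held under all 12 alternatives, and each of the others was lost when at least 1 library was left out. Without early-stage replicate 2, late-stage replicate 2 or late-stage replicate 3 the lists held 5, 4 and 5 called genes, without late-stage replicate 1 they held 11, and without early-stage replicate 1 or 3 they held 38 and 32.

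**Figure D5:**
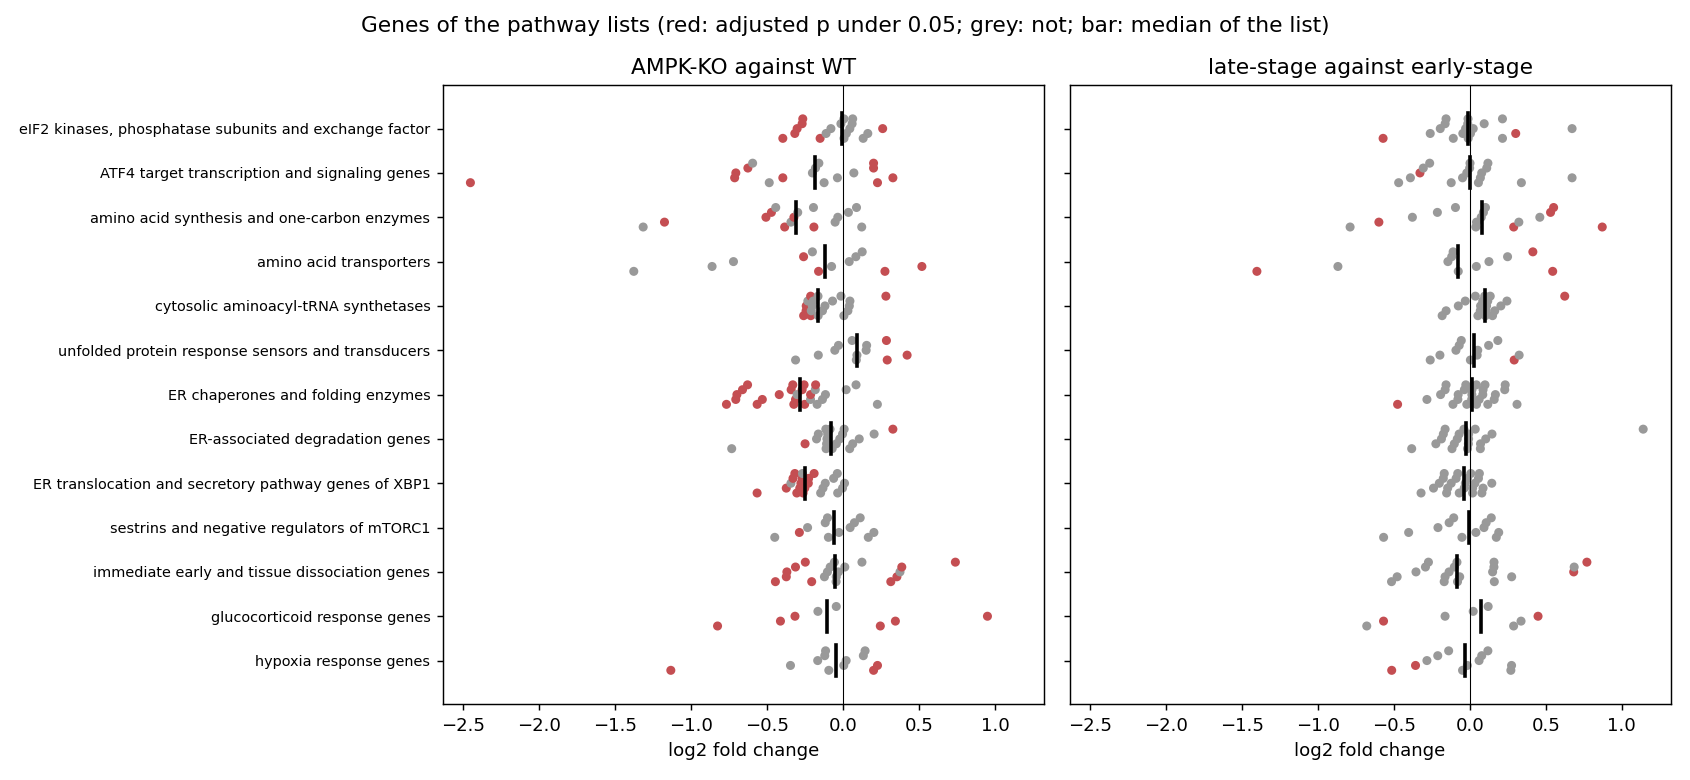
Log2 fold change of each tested gene in the 13 pathway lists for AMPK-KO against WT (left) and late-stage against early-stage (right), red where the adjusted p was under 0.05, with a bar at the median of each list. The median of the ER chaperone list is -0.29 on the left and 0.015 on the right.

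Marker genes differed between the stages as well, where 9.18% of all genes tested were called. The melanoma markers summed to between 1732 and 1886 CPM in the early-stage and between 795 and 1255 CPM in the late-stage samples (6 of 8 lower), the NK cell markers to between 124 and 140.1 against 62.1 and 76.8 CPM (6 of 7 lower), and 3 of 6 fibroblast markers were lower, while 4 of 8 T cell and 3 of 7 B cell markers were higher. Their part in the values of the 10 genes was not tested.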

How the data were processed

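Bulk RNA-seq of sorted TAMs was analysed from 12 samples, 3 in each of 4 groups assigned from the labels. Per the submitters' processing notes, FastQC, HISAT2, featureCounts and DESeq2 were used with mm10 (GRCm38). Versions and the strand setting are not given in the sources used here. The authors deposited raw counts per gene, in 1 table per comparison, and these were analysed without further normalization by the authors. No column was left unmapped.

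The counts of each table were fitted separately in R 4.3.3 with edgeR 4.0.16 (filterByExpr, TMM, quasi-likelihood test, no covariate). Benjamini-Hochberg adjustment covered every gene tested in the table. A gene was called at an adjusted p under 0.05, and rising or falling refers only to called genes. CPM used the TMM-scaled library sizes. TPM used merged exon lengths of GENCODE M21, which matched 54349 of 55401 identifiers with their version. Xbp1 did not match with its version and is given no position. Values are mean ± SD (n = 3) and 95% intervals come from the fit. Replicates of a group differed by more than counting noise (chi-square per gene 9.55 to 132), so none was counted as a duplicate. Recovery of known changes was tested on simulated data.

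The 10 genes and the pathway lists were chosen with earlier results of these data known. The text names the 10 genes, from each list and comparison the genes with the smallest adjusted p in each direction (at most a pair each), Prkaa1, Lyz2 and the Y-linked genes. Promoter sequences are from RefSeq (GRCm38.p6), where all 10 genes matched. As alternatives, the fits were repeated with DESeq2 1.42.0, with upper-quartile or RLE factors, with a minimum of 10 counts per library or of 1 count in the table as the filter, with the replicate number as a block, without 1 library at a time, and with the p left unadjusted. Genes named outside this rule, such as Eif2ak3, Canx, Uggt1, Ero1l, Ero1lb, Sesn1, Sesn3, the plasma cell and macrophage markers and those with a promoter match, were chosen after their values were seen.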

Additional observations from a re-analysis of the deposited data

How the results depend on the processing

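In AMPK-KO against WT the number of the 10 genes called was 4 to 6 when a library was left out and 7 at an unadjusted p, and no alternative moved it or the 82 pathway genes by over 1.5 times. Between the stages, 1 of the 10 genes was called with DESeq2 and 1 at an unadjusted p, and the 20 pathway genes became 33 with DESeq2, 10 with no filter, 56 at an unadjusted p and 4 to 38 when a library was left out. Signs turned for some uncalled genes. With a library left out, the log2 fold changes of Chac1 and Ddit4 in AMPK-KO ranged from -0.82 to 0.19 and from -0.045 to 0.12, and between the stages those of Ddit3 ranged from -0.21 to 0.064, of Chac1 from -0.78 to 0.023, of Ddit4 from -0.28 to 0.081 and of Atf3 from -0.11 to 0.061, while Atf3 was -0.012 with upper-quartile factors. The cause was not tested. Deviations of same-numbered samples correlated by -0.00390 to 0.0423 (AMPK-KO and WT) and 0.0132 to 0.0255 (stages). Those of samples with different numbers correlated by -0.0481 to 0.0472 and by -0.0611 to 0.0413. With 3 libraries per group these values cannot settle whether samples of the same number were paired. With the replicate block 5 and 0 of the 10 genes and 88 and 21 pathway genes were called. The other scalings shifted the median over all genes by -0.0141 to 8.95e-04 (log2).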
